A study of Mus musculus with 8 samples.

Results

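Spleens labelled Nix null were compared with wild-type spleens for 10 genes that are seldom discussed in red cell biology: Plek2, Diaph3, Xpo7, Ypel4, Tspan8, Tlcd4, Apol8, St6galnac1, Dennd2c and Samd11. They were chosen from these same data for a large rise in Nix-null spleen, with the erythroid gene Gata1 and the proliferation gene Mki67 as references, so their differences between genotypes are given as a description and carry no test. They are 10 of 18193 genes named on the array and have 26 of 45037 probe sets, none of them shared with another gene in the annotation. The Nix-null group (Nix-/-, labelled Nix_KO) held spleens of 8-week-old mice labelled null for Nix, the protein of the gene Bnip3l, and the wild-type group (WT) held spleens of 8-week-old mice, with 4 arrays each. RNA was not pooled and no treatment was given to either group, per the labels. Strain, sex and the deleted part of the gene are not given in the sources used here. An array is called by its genotype and title number, which gives Nix_KO 10, 2, 3 and 6 next to WT 3, 4, 5 and 6.

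Nix sits in the outer mitochondrial membrane and marks mitochondria for removal while reticulocytes mature. The mouse spleen makes red cells alongside the bone marrow and widens this output when red cells are short. Late in that process erythroblasts stop dividing, condense and expel their nucleus, rebuild their actin skeleton and strip their membrane to a small set of proteins, and some of the 10 genes are known from exactly these steps in the mouse.

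Expression is given as log2 intensity, on which a difference of 1 is a doubling of signal, and a gene is shown by its brightest probe set, meaning the one with the highest mean over all 8 arrays. Levels of different probe sets are not comparable with each other. Below a log2 intensity of 5 a reading was treated as dim, and folds that involve such readings are lower bounds with those readings set to 5. Errors of levels are SD over 4 arrays, and errors of differences are SE.

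The 3 probe sets of Bnip3l, all also annotated to its pseudogene, had log2 intensities of 9.52 to 13.16 in Nix_KO arrays and 9.38 to 12.57 in WT arrays, and none of them passed the test (limma adjusted p over all probe sets of at least 0.117). Since the deleted part is not known, this does not check the labels. As to the spleen label, B and T cell markers were bright in all 8 arrays. Nix_KO 3, WT 3 and WT 5 carried signal of pancreatic acinar cells, with a mean log2 intensity over 12 acinar genes of 12.70, 11.73 and 9.61, against 5.03 to 7.12 in the other 5 arrays. The 7.12 was that of WT 4, and the next array below it, Nix_KO 2, had 5.94. Erythroid markers averaged 12.35 to 12.84 over 9 genes in Nix_KO arrays, against 9.65 to 11.47 in WT arrays, and neutrophil genes 10.94 to 11.89 over 10 genes, against 7.87 to 10.67. B cell markers averaged 9.65 to 10.52 over 7 genes in Nix_KO arrays, against 11.44 to 11.73 in WT arrays. In whole spleen, a change in the number of cells of a type and a change in RNA per cell cannot be told apart. Over all 11027 genes tested, 14.2% were higher and 24.1% lower in Nix_KO (limma, adjusted p under 0.05), and the median log2 difference was -0.15.

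All 10 genes read higher in every Nix_KO array than in any WT array, a separation that 15.7% of all tested genes also showed and on which the choice of the genes rests. With dim readings set to 5 their log2 differences ran from 1.64 (St6galnac1) to 3.28 (Plek2), both lower bounds, with a median of 2.79; as read, the median was 2.85. On this floored scale they ranked from 2 (Plek2) to 321 (St6galnac1) among the 11027 genes, and 8 of the 10, all but Xpo7 and St6galnac1, were above Gata1 (2.20, rank 92) and Mki67 (2.16, rank 110). The same 8 had a floored difference of at least 2 with full separation, as 1.48% of all genes did. Of their 26 probe sets 18 passed the filter on dim signal, and each gene had at least 1 that did. The only such probe set of St6galnac1 was dim in every WT array and passed through the Nix_KO arrays alone. The same held for Xpo7 1442836_at, Tspan8 1420017_at and Tlcd4 1439353_x_at, so their passing says nothing on the rise. Without the 3 arrays with pancreatic signal the median difference was 3.07.

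**Figure D1:**
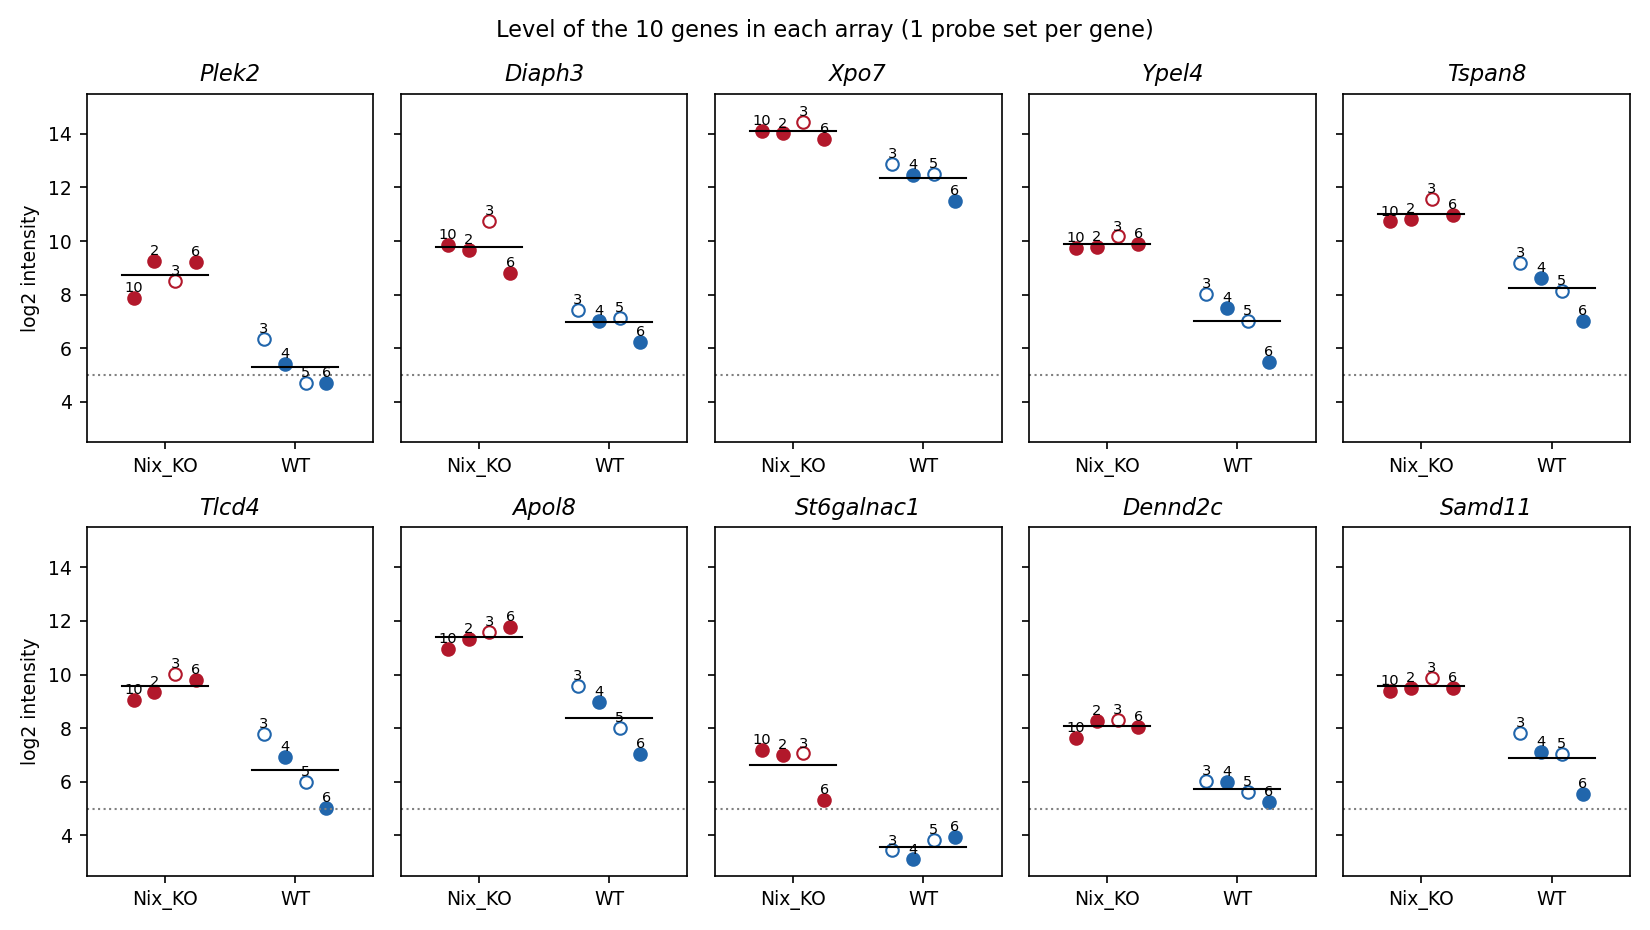
Log2 intensity (vertical axis) of the 10 genes in each array, Nix_KO left and WT right in each panel; numbers are array numbers, open circles the 3 arrays with pancreatic signal, bars group means, and the dotted line a log2 intensity of 5. In every panel the 4 Nix_KO points lie above the 4 WT points, and in 9 of 10 panels WT 3 is the highest and WT 6 the lowest WT point.

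Start regions were available from RefSeq for 8 of the 10 genes (GRCm38.p6, 250 bases before to 50 after the gene's start), with 10 regions in all because Tlcd4 and Dennd2c have 2 each; Xpo7 and St6galnac1 were not matched. The words AGATAA or AGATAG and TGATAA or TGATAG, which GATA factors such as the one encoded by Gata1 bind, occurred on either strand in 5 of these 10 regions, in Diaph3, Tspan8, Dennd2c and Samd11, and in 29.8% of all 32851 start regions. Words of the erythroid KLF type (CCACACCC or CCGCACCC or CCACGCCC) occurred in 2 regions, of Diaph3 and Dennd2c, and in 10.2% of all. The cell cycle words TTTGAA and TTCGAA occurred in 1 region (Dennd2c) and in 19.2% of all, CCAAT in 2 (Diaph3 and Ypel4) and in 37.4%, and the STAT5 pattern TTCNNNGAA in none of the 10 and in 8.3%. None of these words overlapped another motif in the 10 regions. The start regions of Samd11, Tspan8 and Dennd2c are shown because they hold GATA words upstream of the start; capitals mark GATA and KLF words.
Samd11, chr4:156255293-156255592, minus strand: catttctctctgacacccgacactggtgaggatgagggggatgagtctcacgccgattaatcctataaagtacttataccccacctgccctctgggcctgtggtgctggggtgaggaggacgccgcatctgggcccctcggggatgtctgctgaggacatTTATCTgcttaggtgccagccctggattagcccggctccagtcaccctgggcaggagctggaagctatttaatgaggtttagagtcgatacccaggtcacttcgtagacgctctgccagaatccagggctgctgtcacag
Tspan8, chr10:115817034-115817333, plus strand: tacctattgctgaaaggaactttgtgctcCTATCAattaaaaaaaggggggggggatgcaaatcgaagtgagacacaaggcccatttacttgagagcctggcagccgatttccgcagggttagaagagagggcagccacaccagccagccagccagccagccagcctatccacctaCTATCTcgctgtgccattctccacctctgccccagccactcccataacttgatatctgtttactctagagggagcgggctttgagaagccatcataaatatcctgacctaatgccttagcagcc
Dennd2c, chr3:103127306-103127605, plus strand: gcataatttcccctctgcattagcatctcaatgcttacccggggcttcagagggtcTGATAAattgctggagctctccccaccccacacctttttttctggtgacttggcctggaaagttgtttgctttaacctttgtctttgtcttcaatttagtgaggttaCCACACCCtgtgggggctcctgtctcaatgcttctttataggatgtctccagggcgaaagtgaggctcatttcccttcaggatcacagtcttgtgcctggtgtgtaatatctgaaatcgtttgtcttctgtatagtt
The GATA word of Samd11 began 90 bases before the start, those of Tspan8 221 and 74 bases before it, and that of Dennd2c 194 bases before it, with a KLF word 87 bases before it. The other start region of Dennd2c, not shown, held a GATA word 109 bases before its start.

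Plek2 encodes a relative of the platelet protein pleckstrin that binds membrane phosphoinositides and acts on the actin skeleton; in mouse erythroblasts it is known as a target of erythropoietin signalling through JAK2 and STAT5. Its log2 intensity was 7.87, 9.26, 8.51 and 9.23 in Nix_KO 10, 2, 3 and 6, against 6.34, 5.40, 4.72 and 4.72 in WT 3, 4, 5 and 6. WT 5 and WT 6 were dim, so its signal was at least 9.74-fold higher (8.72 ± 0.66 in Nix_KO and 5.29 ± 0.77 in WT, SD, n = 4 each). Among Nix_KO arrays the 10 array was lowest, as it was for Gata1. Its relative Plek, pleckstrin of platelets and leukocytes, differed by -0.60 with a limma adjusted p of 0.0687, short of the threshold.

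Diaph3 encodes mDia2, a formin that lengthens actin filaments and is needed by mouse erythroblasts for cell division and for expelling the nucleus. It read 9.85, 9.66, 10.76 and 8.82 in Nix_KO 10, 2, 3 and 6, against 7.44, 7.04, 7.13 and 6.25 in WT 3, 4, 5 and 6, a 7.01-fold higher signal (9.77 ± 0.80 in Nix_KO and 6.96 ± 0.51 in WT, SD, n = 4 each). Nix_KO 3 was highest and Nix_KO 6 lowest, a range of 1.94 that was wider than the 1.19 among WT arrays. Of 10 other formins tested, 1 was higher and 6 were lower in Nix_KO (limma), with a median of -0.52. Among the lower ones, Daam2 kept its call in 4 and Diaph2 in 2 of 8 leave-one-out fits. Daam1 was the 1 that rose (1.51 ± 0.20, adjusted p = 0.00121); Inf2 (-0.81), Diaph1, the mDia1 gene (-0.68), and Fmnl1, a leukocyte formin (-0.69), were lower, with limma adjusted p = 0.00345, 0.00572 and 0.0075. With each gene's probe sets averaged, Daam1 differed by 0.63, Inf2 by -0.52 and Diaph1 by -0.46, and all 3 still passed.

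Of 11 tested genes of cytokinesis, the step at which mDia2 acts, 8 were higher, 0 lower and 3 did not pass (limma), with a median of 1.32. Markers of dividing cells were higher too, 9 of 9 tested, and averaged 11.55 to 12.00 in Nix_KO arrays, against 9.58 to 10.76 in WT arrays; their part in the list's change was not tested. The higher ones included Ect2, which activates RHOA at the furrow (2.16 ± 0.19, adjusted p = 0.000643), Prc1, a midzone protein (2.19), and the centralspindlin genes Racgap1 (1.29) and Kif23 (1.48). No gene of the list was lower at an unadjusted p under 0.05 either, nor by the unequal-variance test. Rhoa itself had a limma adjusted p of 0.998.

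Xpo7 encodes exportin 7, a nuclear export receptor that mouse erythroblasts need to clear nuclear proteins before the nucleus condenses and leaves. Its brightest probe set read 14.11, 14.01, 14.43 and 13.80 in Nix_KO 10, 2, 3 and 6, against 12.88, 12.47, 12.50 and 11.50 in WT 3, 4, 5 and 6, or 3.36-fold (14.09 ± 0.26 in Nix_KO and 12.34 ± 0.59 in WT, SD, n = 4 each). Its 8 probe sets did not give 1 size of change. Probe set 1415682_at read 11.46 to 11.97 in Nix_KO, against 8.67 to 9.84 in WT (5.12-fold), and 1435814_at 6.86 to 7.72, against 4.78 to 5.92 (at least 3.15-fold). Probe set 1442836_at read 7.99, 6.03, 7.66 and 6.71 in Nix_KO 10, 2, 3 and 6 and was dim in all 4 WT arrays (2.61 to 3.37), at least 4.29-fold higher. The other 4 were below the filter, and 3 of these were dim in all 8 arrays.

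Xpo7 lies on chromosome 14, as do Diaph3 and Bnip3l, the gene of Nix, in the RefSeq order (GRCm38.p6), with 48 protein-coding genes between Xpo7 and Bnip3l and 106 between Diaph3 and Bnip3l. The other 8 genes lie on other chromosomes. Of the 10 tested genes nearest to Xpo7, 5 on either side, 5 were higher and 1 lower (limma), looked up after the values were seen. Over all tested genes 14.2% were higher and 24.1% lower, and a part of chromosome position was not tested. The higher ones included Dmtn, encoding the red cell membrane protein dematin (2.14), and Rb1 (2.05), and Fndc3a was the lower one (-0.78).

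Of 6 other tested exportins, 2 rose and 1 fell (limma). Xpo1, the exporter of proteins with leucine-rich signals, rose by 0.84 ± 0.18 (adjusted p = 0.00606) and Cse1l, which returns importin alpha to the cytosol, by 0.56 (adjusted p = 0.0177), while Xpo6, an actin exporter, differed by -0.71 (adjusted p = 0.0177). With its probe sets averaged Xpo1 differed by 0.54 and lost its call (limma adjusted p = 0.051). Cse1l and Xpo6 lost their calls without some single arrays (limma adjusted p up to 0.0513 and 0.0515). Ranbp17, the closest relative of Xpo7, was dim in all 8 arrays, at most 3.39. Of 19 tested genes of enucleation and nuclear condensation, 11 rose and 4 fell, with a median of 0.57. Among those that rose, Ran kept its call in 2 of 8 leave-one-out fits. Hdac2 and Hira lost theirs with probe sets averaged (limma adjusted p = 0.1 and 0.0653). Rb1 (2.05 ± 0.22, adjusted p = 0.000976), the transcription factor genes Foxo3 (1.30) and E2f2 (1.24), and Myh10, a non-muscle myosin (2.24), were higher; the 4 lower ones were Rac2 (-1.32), Tmod3 (-0.69), Kat2a (-0.65) and Rac1 (-0.59), of which Tmod3 kept its call in 3 and Rac1 in 2 of 8 leave-one-out fits.

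**Figure D2:**
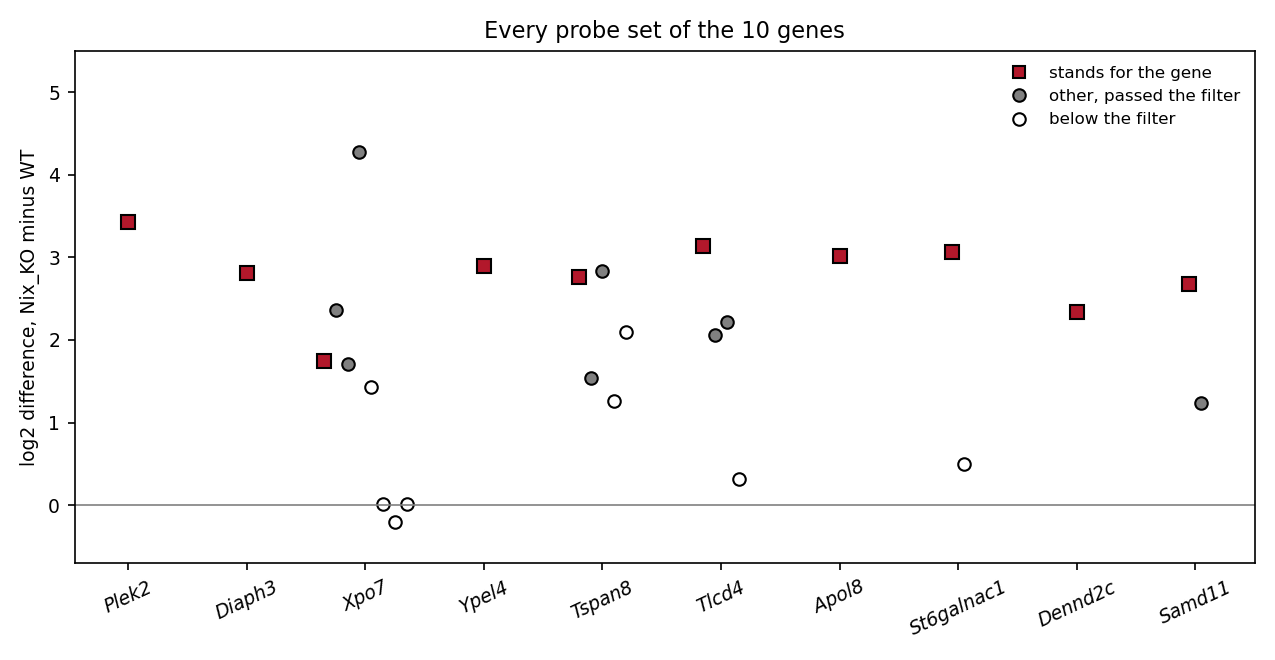
Log2 difference, Nix_KO minus WT (vertical axis), of all 26 probe sets by gene; squares stand for the gene in the comparisons, grey circles are other probe sets past the filter and open circles those below it. The highest point, an Xpo7 probe set at 4.28, and the St6galnac1 square are dim in all 4 WT arrays, so their heights are not exact, and the 3 Xpo7 points nearest 0 are dim in all 8 arrays.

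Ypel4 encodes a small zinc-binding yippee protein, and mice without it have altered red cells. Its log2 intensity was 9.76, 9.77, 10.17 and 9.90 in Nix_KO 10, 2, 3 and 6, against 8.04, 7.49, 7.01 and 5.48 in WT 3, 4, 5 and 6, 7.44-fold higher (9.90 ± 0.19 in Nix_KO and 7.01 ± 1.10 in WT, SD, n = 4 each). The Nix_KO arrays lay within 0.41 of each other and the WT arrays within 2.56, which is 88.3% of the genotype difference. Of the 3 relatives tested, Ypel5 rose by 1.03 ± 0.19 (limma adjusted p = 0.003), Ypel2 was lower (-0.97, adjusted p = 0.0105) and Ypel3 differed by 0.23 (adjusted p = 0.32).

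Tspan8 encodes a tetraspanin, a membrane organiser best known from gut and pancreatic epithelium. Its brightest probe set read 10.73, 10.81, 11.55 and 10.96 in Nix_KO 10, 2, 3 and 6, against 9.20, 8.62, 8.13 and 7.03 in WT 3, 4, 5 and 6, 6.81-fold higher (11.01 ± 0.37 in Nix_KO and 8.24 ± 0.92 in WT, SD, n = 4 each). The highest array of each genotype, Nix_KO 3 and WT 3, carried pancreatic signal. WT 5, with an acinar gene mean of 9.61, read below WT 4, with a mean of 7.12. Without Nix_KO 3, WT 3 and WT 5 the log2 difference was 3.01 in place of 2.77. The part of acinar cells in the Tspan8 signal was not tested. Of its 4 other probe sets, 1420017_at read 5.90 to 7.07 in Nix_KO and was dim in all WT arrays (2.79 to 4.37), and 1420019_at read 5.90 to 7.48, against at most 5.75 in WT. The other 2 were below the filter, with 2 and 3 of the 4 Nix_KO arrays dim and every WT array dim. Of 4 tested epithelial genes, Epcam, Cdh1 and Cldn3 did not pass and Spint2 was lower (-0.66, limma adjusted p = 0.0474).

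Of 20 other tetraspanins tested, 1 rose and 10 fell (limma), with a median of -0.63. Among those that fell, Tspan17 kept its call in 4 of 8 leave-one-out fits. Cd151 lost its call with probe sets averaged (limma adjusted p = 0.0801). The 1 that rose was Tspan33, a tetraspanin known from mouse erythroblasts: 12.95, 13.28, 13.46 and 13.68 in Nix_KO 10, 2, 3 and 6, against 12.16, 11.58, 11.53 and 10.21 in WT 3, 4, 5 and 6 (1.97 ± 0.35, adjusted p = 0.00269). Cd37, a tetraspanin of B cells, was lower by the largest amount among them (-1.83 ± 0.25, adjusted p = 0.00133), beside Tspan14 (-1.26). Tspan18 was dim in every Nix_KO array and read 5.36 to 5.56 in WT, and the other lower ones included Cd9 (-0.99) and Cd81 (-0.76).

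Tlcd4 encodes a multi-pass membrane protein of the TLC domain family, which includes ceramide synthases. Its brightest probe set read 9.07, 9.36, 10.03 and 9.78 in Nix_KO 10, 2, 3 and 6, against 7.78, 6.92, 5.99 and 5.03 in WT 3, 4, 5 and 6, 8.77-fold higher (9.56 ± 0.43 in Nix_KO and 6.43 ± 1.18 in WT, SD, n = 4 each). WT 3 and WT 6 lay 2.74 apart, the widest WT range of the 10 genes. Another probe set, 1439353_x_at, read 5.76 to 7.24 in Nix_KO and was dim in all WT arrays, too low to show a spread among them. Probe set 1456718_at read 6.56 to 8.24 in Nix_KO, against 4.95 to 6.16 in WT, with Nix_KO 6 lowest on both. The fourth probe set was dim in all 8 arrays.

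Of 9 relatives with a TLC domain, 2 rose, 3 fell and 4 did not pass (limma), with a median of -0.25. Tlcd1 read 7.86, 8.77, 8.45 and 8.66 in Nix_KO 10, 2, 3 and 6, against 6.97, 6.19, 5.96 and 4.70 in WT 3, 4, 5 and 6 (2.48 ± 0.41, adjusted p = 0.00202). Tlcd2 rose by 1.58 ± 0.30 (limma adjusted p = 0.0032). The ceramide synthase genes Cers4 (-1.04) and Cers5 (-0.89) and the translocon gene Tram2 (-0.91) were lower, and Tram2 kept its call in 5 of 8 leave-one-out fits. Tlcd5 was dim in all 8 arrays, at most 4.10.

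Apol8 belongs to the apolipoprotein L family of lipid-binding proteins, which is expanded in the mouse. It read 10.95, 11.32, 11.58 and 11.78 in Nix_KO 10, 2, 3 and 6, against 9.56, 8.97, 8.00 and 7.04 in WT 3, 4, 5 and 6, 8.09-fold higher (11.41 ± 0.36 in Nix_KO and 8.39 ± 1.11 in WT, SD, n = 4 each). The 1 other family member tested, Apol11b, rose by 1.37 ± 0.15 (limma adjusted p = 0.000977), with WT arrays that lay close together (11.47 to 11.82, against 12.95 to 13.30 in Nix_KO). Apol6 was dim in all 8 arrays, at most 3.43.

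St6galnac1 encodes the sialyltransferase that caps the first sugar of O-linked glycans and so forms the sialyl-Tn antigen. It was dim in all 4 WT arrays, 3.44, 3.10, 3.84 and 3.93 in WT 3, 4, 5 and 6, and read 7.20, 6.99, 7.06 and 5.32 in Nix_KO 10, 2, 3 and 6, at least 3.12-fold higher (6.64 ± 0.88 in Nix_KO and 3.58 ± 0.38 in WT, SD, n = 4 each). The Nix_KO arrays other than 6 lay close together and Nix_KO 6 lay well below them. Its second probe set was dim in all 8 arrays. Of 11 other sialyltransferases, 3 rose and 2 fell (limma): St3gal5, which makes the ganglioside GM3, by 1.89 ± 0.24 (adjusted p = 0.00118), St3gal2 by 1.25 (adjusted p = 0.00151) and St3gal6 by 1.05 (adjusted p = 0.0146), while St6gal1, which acts on N-linked glycans of B cells, had 0.499 times its WT signal (adjusted p = 0.00544). St6galnac2 differed by 0.32 (limma adjusted p = 0.113).

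Of 12 tested genes that start or extend O-linked glycans, the substrate of St6galnac1, 0 rose and 4 fell (limma), with a median of -0.41. At an unadjusted p under 0.05 there were 2 higher, C1galt1 (0.49) and Galnt1 (0.42), with limma adjusted p = 0.0533 and 0.0667, and by the unequal-variance test 0 were higher. The lower ones were the transferase genes Galnt6 (-1.10), Galnt4 (-0.82), Galnt12 (-0.83) and Galnt7 (-0.55), of which Galnt7 kept its call in 2 of 8 leave-one-out fits.

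Dennd2c encodes a DENN domain protein of a family that activates Rab GTPases in membrane traffic. It read 7.63, 8.28, 8.31 and 8.04 in Nix_KO 10, 2, 3 and 6, against 6.03, 6.01, 5.62 and 5.24 in WT 3, 4, 5 and 6, 5.07-fold higher (8.07 ± 0.32 in Nix_KO and 5.73 ± 0.37 in WT, SD, n = 4 each). Its WT range, 0.79, was the smallest among the genes not dim in every WT array. Of 14 other DENN domain genes, 2 rose and 7 fell (limma), with a median of -0.50. Dennd4a (1.13) and Denn2b (0.86) were higher. Dennd1c (-1.42 ± 0.22, limma adjusted p = 0.00171), Dennd3 (-1.14), Dennd4b (-1.15) and the close relative Dennd2d (-0.96, adjusted p = 0.00469) were lower. Among the other lower ones, Dennd2a kept its call in 3 and Dennd1b in 6 of 8 leave-one-out fits.

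Samd11 encodes a sterile alpha motif protein known from mouse photoreceptors, where it acts with chromatin repressors. It read 9.39, 9.48, 9.87 and 9.49 in Nix_KO 10, 2, 3 and 6, against 7.83, 7.13, 7.05 and 5.53 in WT 3, 4, 5 and 6, 6.38-fold higher (9.56 ± 0.21 in Nix_KO and 6.88 ± 0.97 in WT, SD, n = 4 each). A dimmer probe set, 1456977_at, read 6.10 to 6.93, against 5.08 to 5.57 in WT, or 2.36-fold. Of 12 other genes with this motif, 1 rose and 5 fell (limma), with a median of -0.47. Among those that fell, Samd8 kept its call in 4 of 8 leave-one-out fits, and Phc2 and Samd9l in 3 each. The 1 that rose was Samd14, known in mouse erythroid precursors for its part in KIT signalling (1.66 ± 0.28, adjusted p = 0.00226), and L3mbtl3 (-1.18) and the Polycomb gene Phc1 (-0.86) were lower.

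**Figure D3:**
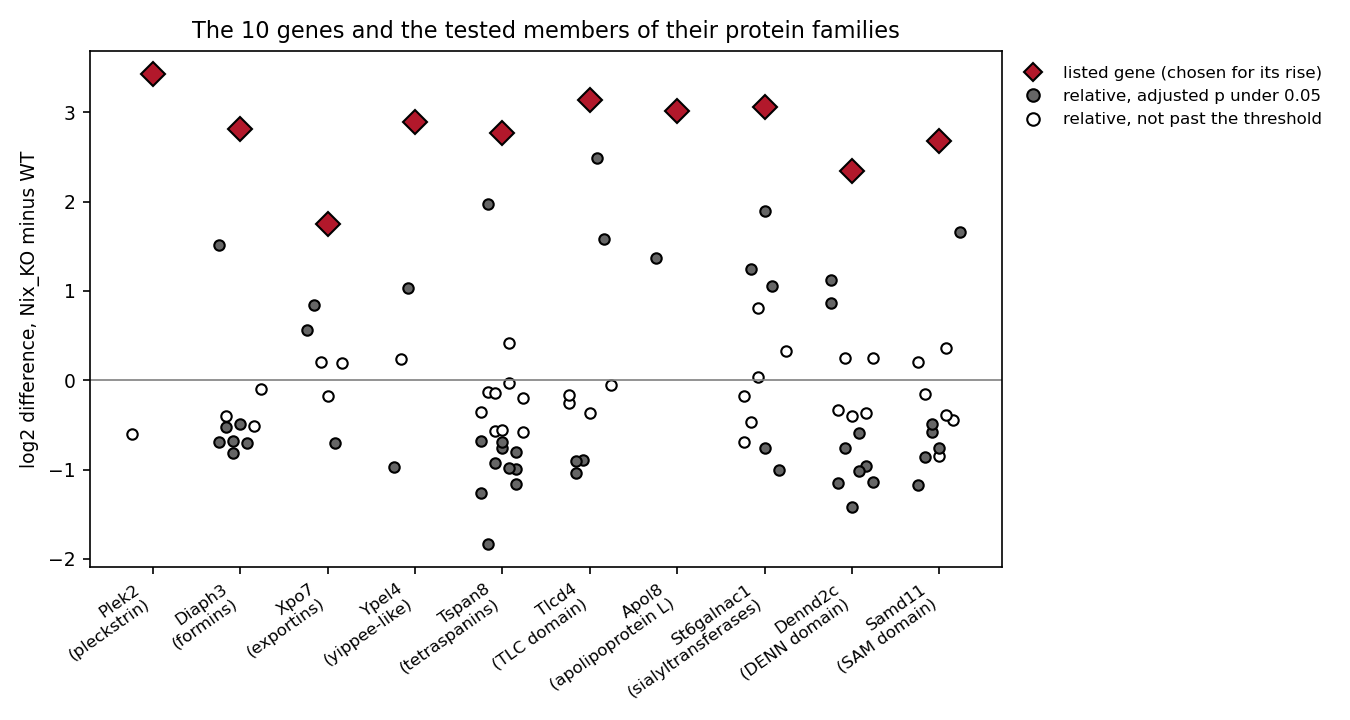
Log2 difference, Nix_KO minus WT (vertical axis), of the 10 genes (diamonds, chosen for their rise) and of 87 tested relatives (circles, filled where the limma adjusted p was under 0.05), by protein family. Daam1, Tspan33 and Samd14 are the highest circles of the formins, tetraspanins and sterile alpha motif genes, and each is the 1 relative of its family that passed upwards.

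Over all families 14 of 87 tested relatives were higher, 35 lower and 38 did not pass (limma), with a median log2 difference of -0.45, against 14.2% higher, 24.1% lower and a median of -0.15 over all genes. Without the 3 arrays with pancreatic signal 10 relatives were higher and 13 lower. In that setting 846 of all tested genes were higher and 838 lower, in place of 1570 and 2657. Averaging a gene's probe sets moved the differences of St3gal2 to 0.76, St3gal6 to 0.69, Cers5 to -0.52, Dennd1c to -0.78 and Galnt4 to -0.41, all still past the threshold. Stroma and endothelium markers averaged 7.30 to 8.00 over 10 genes in Nix_KO arrays, against 8.68 to 9.03 in WT arrays, lower as the B cell markers were; the part of these cells in the lower relatives was not tested. Of 52 tested partner genes of cytokinesis, enucleation, O-glycan synthesis and erythropoietin signalling, 24 were higher and 10 lower. Over all genes the shares were 14.2% and 24.1%. Without the 3 arrays 21 partners were higher and 1 lower, a setting in which calls over all genes also fell, as given above. The 10 became 6 without Nix_KO 3, without WT 4 or without WT 6.

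In the erythropoietin pathway, which drives Plek2 in mouse erythroblasts, 5 of 10 tested genes rose and 2 fell (limma), with a median of 0.44. The kinase gene Pim1 (1.10 ± 0.16, adjusted p = 0.00143), the survival gene Bcl2l1 (1.44), the receptor gene Epor (2.06) and the adaptor gene Gab1 (0.95) were higher, as was Cish (0.93), and Stat5b (-0.60) and Socs3 (-0.81) were lower. Socs3 had a limma adjusted p of 0.0487 and kept its call in 1 of 8 leave-one-out fits; without Nix_KO 3 its difference was -0.51. Jak2 (-0.06) and Stat5a (-0.41) did not pass, with limma adjusted p = 0.814 and 0.0796.

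The WT arrays were uneven for most of the 10 genes. WT 3 was the highest and WT 6 the lowest WT array for 9 of them, a pattern shown by 9.01% of all tested genes; the exception was St6galnac1. Gata1 read 11.04, 11.79, 11.59 and 11.58 in Nix_KO 10, 2, 3 and 6, against 10.24, 9.55, 9.30 and 8.09 in WT 3, 4, 5 and 6. Mki67 read 13.13, 12.73, 13.74 and 13.05 in the same Nix_KO arrays, against 12.22, 11.21, 10.30 and 10.30. Both references were therefore highest in WT 3, and Gata1 lowest in WT 6. For 8 of the 10 genes, all but Diaph3 and St6galnac1, the range was wider among WT than among Nix_KO arrays, which held for 28.3% of all genes. Leaving out St6galnac1, dim in all WT arrays, the WT range was 33.9% (Dennd2c) to 88.3% (Ypel4) of the genotype difference. The neutrophil gene mean was uneven in the same direction, 10.67, 10.02, 8.39 and 7.87 in WT 3, 4, 5 and 6, and its part in the pattern was not tested.

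With the genotype means left in, Pearson's r over the 8 arrays was 0.77 (St6galnac1) to 0.99 (Samd11) with Gata1 and 0.78 to 0.97 with Mki67; these values belong to the choice of the genes, and the gap between the genotypes is part of them. With each genotype's mean taken off, which leaves the spread within genotypes, the brightest probe sets had a median r of 0.89 with Gata1 and 0.74 with Mki67, where the median over all tested genes was -0.05 and -0.07. At r of at least 0.8, 7 of the 10 stood with Gata1, against 3.18% of all genes, and 3 with Mki67, against 1.96%. The r with the means left in contains this spread too, so these values are not independent of the choice and are no separate support. They describe 8 arrays that share 1 tissue and its cell makeup, and carry no p.

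The genes differed among themselves in this respect. By their brightest probe sets, Samd11, Ypel4, Apol8, Tlcd4 and Tspan8 had r of 0.94, 0.94, 0.94, 0.92 and 0.91 with Gata1, and Dennd2c 0.88. Their other probe sets past the filter were lower: 0.70 and 0.41 for Tspan8, 0.42 and 0.08 for Tlcd4, and 0.52 for Samd11. Xpo7 had 0.83 by its brightest probe set and 0.87, 0.49 and -0.16 by the others past the filter. The 0.70 of Tspan8, the 0.08 of Tlcd4 and the -0.16 of Xpo7 came from probe sets dim in every WT array. Such readings are too low to show a spread among WT arrays. Plek2 was closer to Gata1 (0.79) than to Mki67 (0.56), while Diaph3 had 0.47 and 0.60. St6galnac1 had -0.33 and -0.16; it was highest in Nix_KO 10, lowest in Nix_KO 6 and dim in every WT array. Among the 45 pairs of the 10 genes r ran from -0.55 (Plek2 and St6galnac1) to 0.99 (Ypel4 and Samd11), with 18 pairs at 0.8 or above.

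This likeness was mostly lower without WT 3 and WT 6, the arrays farthest apart in Gata1. Leaving out arrays picked for that distance narrows the range of Gata1, which tends to lower r whatever the relation. The mean of the 10 genes had r = 0.94 with Gata1 over 8 arrays (Spearman's rho 0.88) and 0.59 over the 6 arrays without WT 3 and WT 6. Without them Dennd2c was at 0.93 with Gata1 and Plek2 at 0.80, the others were below 0.8, Xpo7 was at 0.00 and Diaph3 at -0.05, and no gene reached 0.8 with Mki67. The mean also had r = 0.83 with the neutrophil gene mean and 0.72 with the acinar gene mean over the 8 arrays, and 0.39 and 0.50 over 6 arrays without the pair farthest from the median of each.

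**Figure D4:**
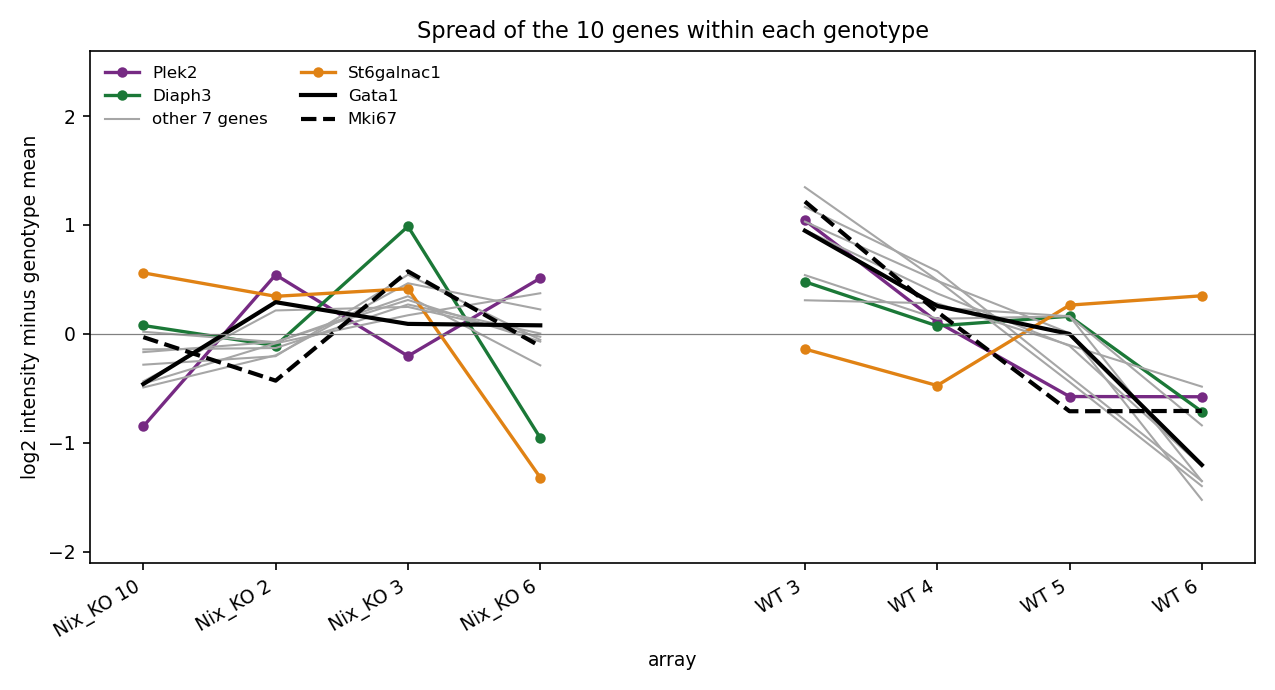
Log2 intensity minus the mean of the array's own genotype (vertical axis) by array; grey lines are 7 of the 10 genes, coloured lines Plek2, Diaph3 and St6galnac1, and black lines the references Gata1 (solid) and Mki67 (dashed). In the WT arrays all but St6galnac1 are above 0 in WT 3 and below 0 in WT 6. In the Nix_KO arrays Diaph3, St6galnac1 and Xpo7, a grey line, are lowest in Nix_KO 6.

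The 5 genes most like the mean of the 10 by this measure, with r from 0.97 to 0.99 over 8 arrays, were E2f8, an E2F repressor of the cell cycle, Rhag, the Rh-associated red cell membrane glycoprotein, 5430401H09Rik, an unnamed clone, Tfrc, the transferrin receptor, and Pigq, of the first step of GPI anchor synthesis. This measure did not use the difference between genotypes, and all 5 were higher in Nix_KO (limma), as 14.2% of all tested genes were. They were picked for following genes that were themselves chosen for their rise, so their rise is no separate support. E2f8 read 11.38, 11.64, 11.88 and 11.54 in Nix_KO 10, 2, 3 and 6, against 10.28, 9.79, 9.45 and 8.94 in WT 3, 4, 5 and 6 (2.00, adjusted p = 0.00118). Rhag read 12.89, 13.18, 13.34 and 12.85, against 11.76, 11.18, 10.62 and 9.23 in the same WT arrays (2.37, adjusted p = 0.00302). In both, as in 9 of the 10 genes, WT 3 was the highest and WT 6 the lowest WT array.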

How the data were processed

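RNA from 8 spleens, 4 labelled Nix null and 4 wild type, was hybridised to Affymetrix mouse arrays, and per the labels it was not pooled. The deposited values are linear intensities, 1 for each probe set on each array; per the submitters' processing notes they come from GCRMA (background correction, normalization and probe set summary), with no version stated. The test had been planned on log2 values, and the deposited intensities were therefore put on the log2 scale, with no offset. GCRMA draws dim probe sets to a shared floor, which limits their folds.

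Of 45101 probe sets, 64 controls were left out, and 22347 of the other 45037 passed a filter, a log2 intensity of 5 or more on 4 or more of the 8 arrays. The platform annotation gave 34945 of these 45037 probe sets 1 gene, 932 several and 9160 none. For each of 11027 genes, the probe set naming only that gene and having the highest 8-array mean was used.

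Genotypes were compared with limma 3.58.1 in R 4.3.3 (lmFit, eBayes; two-sided), and p-values were adjusted by Benjamini-Hochberg across the 11027 genes, with 0.05 as the threshold. The script was tested on simulated data. Plots used matplotlib 3.10.9 under Python 3.11.15. The 4 arrays per genotype limit the precision.

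The 10 genes and all lists were chosen with earlier results of these data known. The relatives and partners named are those that passed with the lowest adjusted p, at most 4 from a list. A relative picked for each of the 10, also with earlier results known, was added, and how close it is was not measured. Others were named after their values were seen. The genes most alike are the 5 with the highest correlation to the mean of the 10. Alternatives were other filters, normalizations and array weights, the mean of a gene's probe sets, leaving out arrays, the title number as a block and a plain unequal-variance test.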

Additional observations from a re-analysis of the deposited data

Results flagged for a closer look

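Among 40 groups of 4 arrays checked (each probe set of the 10 genes past the filter, and Gata1 and Mki67, in each genotype), 2 had an array set apart from the others by Dixon's test at 95%, where chance alone flags about 1 in 20. St6galnac1 in Nix_KO 6 read 5.32, against 6.99 in the next Nix_KO array. The Xpo7 probe set 1442836_at in WT 4 read 3.37, against 2.68 in the next WT array, and all 4 WT readings of it were dim.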

How the results depend on the processing

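Since the 10 genes were chosen for their rise, the sign of their differences was largely set by that choice. Most values of a gene's brightest probe set are counted both for the gene and for the probe set. All 409 alternative values of the differences of the 10 genes and their 18 probe sets past the filter, and of the median, kept their sign, and 405 moved by less than the spread between replicates. The 4 others were Xpo7 at 2.52 and Samd11 at 1.95 with a gene's probe sets averaged, and probe sets 1435814_at (2.19) and 1439353_x_at (1.73) with the title number as a block. The median difference of the 10 ranged from 2.48 (without WT 6) to 3.05 (without WT 3) over leave-one-out fits. St6galnac1 could not be fitted under the stricter filter, which it did not pass.

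Over leave-one-out fits 13 to 16 relatives were higher and 26 to 35 lower, 22 to 24 partners higher and 6 to 10 lower, and 1222 to 1619 of all genes higher and 1780 to 2743 lower. Without the 3 arrays with pancreatic signal 13 relatives and 1 partner were lower, and of all genes 846 were higher and 838 lower. With a plain unequal-variance test 8 relatives were higher and 17 lower, 4 partners lower, and 864 of all genes higher and 1077 lower. Without the filter 6 partners were lower. With each array centred on its median 47.8% in place of 37.1% of all calls were higher. The mean's r with Gata1 ranged from 0.81 to 0.97 and with Mki67 from 0.67 to 0.91 over leave-one-out fits.

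Only numbers 3 and 6 occur in both genotypes, and deviations of same-numbered arrays correlated at 0.36 and 0.12. With the number as a replicate block 9 relatives and 3 partners were lower, and 772 of all genes higher and 669 lower, on 1 residual degree of freedom; the labels do not say that the numbers pair the samples. The causes of these changes were not tested.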

Other observations

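The deviation of the 10 genes' mean from its genotype mean ran against several marker lists, given here as descriptions over 8 arrays and over 6 arrays without the pair farthest from each list's median. For T cell markers r was -0.70 and -0.68, for stroma and endothelium -0.41 and -0.60, for B cell markers -0.32 and -0.49, and for epithelium -0.48 and -0.09. With macrophage markers r was -0.13 over 8 arrays and 0.23 without Nix_KO 6 and Nix_KO 3, and with megakaryocyte and platelet markers 0.42 and 0.29.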
